A study of Mus musculus with 12 samples.

Results

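Calcitriol, the hormonal form of vitamin D, was given in liposomes to mice with diet-induced fatty liver, and 3 livers from treated mice were compared with 3 livers from mice on the same diet alone. These 6 libraries of whole-liver RNA sequencing, chosen by their sample titles, are 6 of 12 in the study. The treated group, HFHS_Calcitriol, was female C57BL/6 mice, an inbred strain, fed a high fat high sugar diet (HFHS) for 14 weeks as a model of steatohepatitis, with calcitriol liposomes injected intravenously in weeks 12 and 13 and livers taken 2 weeks after the first injection. The HFHS group received the same diet for 14 weeks, and its labels name no injection. Curcumin liposomes on the same schedule define a further group of 3 (HFHS_Curcumin). The remaining group of 3 is titled CNT. Its labels carry the same diet text as the other groups, so it is named here by its title only. No group given empty liposomes was analysed here, so calcitriol, its carrier and the injection cannot be told apart. The labels give no age and do not say whether each library is 1 animal, so the p-values reflect only how far these samples spread, which may be technical.

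Calcitriol acts through the vitamin D receptor, a nuclear receptor that pairs with a retinoid X receptor and binds DNA at vitamin D response elements. In healthy liver the receptor is found mainly in the non-parenchymal cells (stellate cells and macrophages) and is scarce in hepatocytes, the cells that make up most of the organ. Hepatocytes make vitamin D binding protein, synthesise cholesterol and fatty acids, buffer zinc with metallothioneins, and secrete acute phase proteins in inflammation.

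All values are log2 expression values as the authors deposited them, one per gene and library, so a difference of 1 is a 2-fold difference. Such a scale does not allow levels to be compared between genes of different length. Neither counts nor depth were analysed here, so precision is given as the spread between libraries. The median standard error (SE) of a difference between both groups was 0.100. Genes were tested where at least 3 of the 12 libraries reached 3.32, which is log2 of 10, and 12637 genes did. The tissue label was checked against 14 hepatocyte markers. All 14 were among the tested genes, with albumin (Alb) at 20.32, 20.41 and 19.65 in calcitriol livers and 20.22, 20.51 and 20.19 in HFHS livers. Of 12 pancreatic acinar markers 1 reached the filter. The HFHS libraries were uneven: on the first principal component of all 12 libraries (37.5% of the variance), HFHS replicates 1 and 3 lay at -32.8 and -28.4 and HFHS replicate 2 at 3.09, against 0.396, 4.51 and 1.24 for the calcitriol libraries. The root mean square standard deviation between libraries was 0.148 for calcitriol, 0.233 for HFHS, 0.126 for curcumin and 0.177 for CNT. Results below are therefore given both against all 3 HFHS livers and, where the value moves, against HFHS replicate 2 alone. In bulk tissue, fewer cells of a type and less RNA per cell cannot be told apart.

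Between calcitriol and HFHS livers, 279 genes passed an adjusted p of 0.05 (2.21% of those tested), 123 of them higher (0.973%) and 156 lower (1.23%) with calcitriol. In all 279 the calcitriol and HFHS livers did not overlap, beside 24.4% of all genes tested. A lack of overlap named below is therefore no further support for a called gene. Metallothionein genes and the zinc exporter Slc30a1 were higher. Enzymes of cholesterol synthesis, DNA replication genes, glutathione transferases and other NRF2 target genes, and the inducible chaperone Hspa1b were lower. Most changes were below 2-fold: the median log2 change was 0.50 among genes that rose and fell by 0.576 among those that fell, and 9 genes rose and 15 fell by 2-fold or more (0.19% together). The calls come from a limma model over all 12 libraries, which share one estimate of the spread. Fitted on the 6 libraries alone, no gene passed (lowest adjusted p = 0.107, with 2310 genes at an unadjusted p under 0.05). The number of calls also hung on single libraries. It was 118, 4 and 14 without calcitriol replicates 1, 2 and 3 in turn, and 24, 2194 and 58 without HFHS replicates 1, 2 and 3 in turn.

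**Figure D1:**
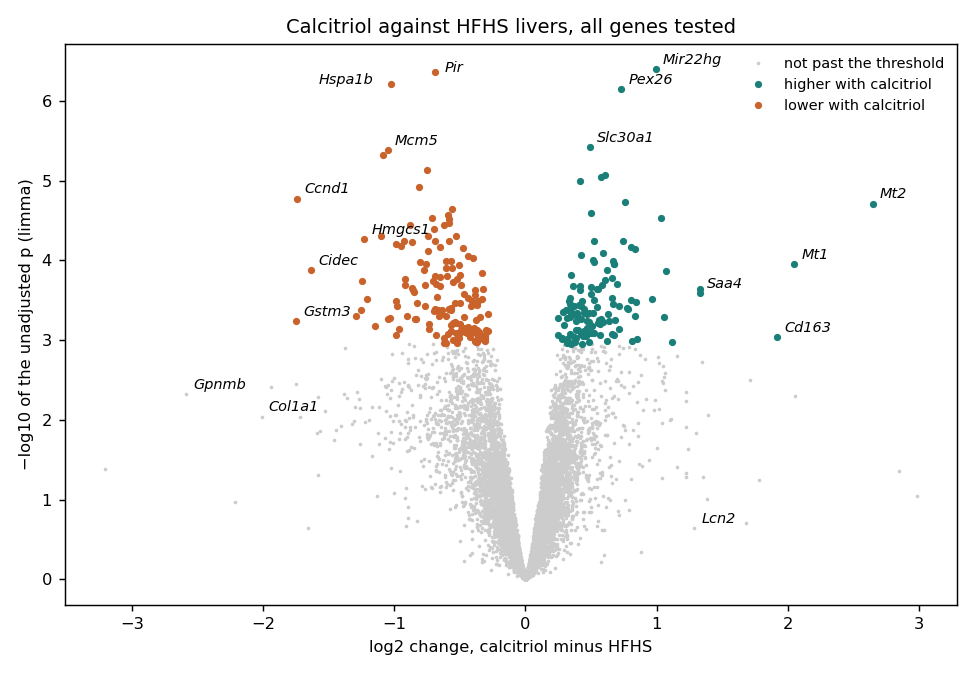
Log2 change (calcitriol minus HFHS, horizontal axis) against −log10 of the unadjusted limma p (vertical axis) for the 12637 genes tested. Coloured points are the 123 genes that were higher (green) and the 156 that were lower (orange) at an adjusted p under 0.05; Mt2 and Mt1 lie farthest right among them, while Col1a1 and Gpnmb have large differences that did not pass.

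Metallothioneins, small cysteine-rich proteins that bind zinc and copper, had the largest rises among genes that passed. Their promoters are shown because both genes lie side by side on chromosome 8 and moved together with Slc30a1, and because metal response elements, bound by the zinc sensor MTF1, are the textbook control sites of all 3. The windows are RefSeq sequences of build GRCm38.p6, running from 250 bases before to 50 bases after the annotated start, 5′ to 3′ on the gene's own strand. Capitals mark matches to the core letters TGCACNC or TGCGCNC on either strand. The Mt2 window is chr8:94172368-94172667 (plus strand) with 4 matches, the Mt1 window chr8:94178839-94179138 (plus strand) with 3, and the Slc30a1 window chr1:191906531-191906830 (plus strand) with 2.
Mt2: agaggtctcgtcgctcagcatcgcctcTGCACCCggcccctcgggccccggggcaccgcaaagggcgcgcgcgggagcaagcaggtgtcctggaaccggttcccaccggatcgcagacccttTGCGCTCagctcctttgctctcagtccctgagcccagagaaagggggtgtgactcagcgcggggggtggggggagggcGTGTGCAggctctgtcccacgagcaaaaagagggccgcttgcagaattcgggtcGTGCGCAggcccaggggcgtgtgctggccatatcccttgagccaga
Mt1: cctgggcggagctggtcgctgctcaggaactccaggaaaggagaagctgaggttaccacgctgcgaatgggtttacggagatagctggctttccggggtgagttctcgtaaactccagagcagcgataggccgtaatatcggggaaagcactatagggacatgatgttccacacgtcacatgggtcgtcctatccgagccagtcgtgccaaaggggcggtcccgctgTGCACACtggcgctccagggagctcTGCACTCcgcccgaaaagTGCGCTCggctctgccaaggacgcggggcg
Slc30a1: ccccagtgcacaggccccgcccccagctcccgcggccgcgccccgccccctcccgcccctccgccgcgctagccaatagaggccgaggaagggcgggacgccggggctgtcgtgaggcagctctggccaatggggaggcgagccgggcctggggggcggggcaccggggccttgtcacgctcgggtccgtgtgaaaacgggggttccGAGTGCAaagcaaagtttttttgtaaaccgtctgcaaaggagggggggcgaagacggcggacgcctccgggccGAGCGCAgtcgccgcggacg
Such short letters are common, and 35.7% of the 9857 windows of tested genes held at least 1 match. So did 26 of the 82 windows of genes that were higher with calcitriol (31.7%) and 49 of the 130 of genes that were lower (37.7%). Among tested metallothionein and zinc handling genes, 10 of 19 windows held a match (52.6%). A match is a description of the sequence, not evidence of binding.

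Mt2 (chr8:94172664-94173568) stood at 11.75, 12.27 and 13.31 in calcitriol livers, against 10.17, 9.57 and 9.64 in HFHS livers. The lowest calcitriol liver was above the highest HFHS liver by more than the whole range of the HFHS group, and the log2 change was 2.65 ± 0.37 (SE, n = 3 per group, limma adjusted p = 0.0163), a 6.27-fold difference. It was 2.87 against HFHS replicate 2 alone. Mt1 (chr8:94179082-94180327) stood at 12.16, 12.70 and 13.53 in calcitriol livers, against 10.94, 10.66 and 10.65 in HFHS livers. Again the groups did not overlap, with a log2 change of 2.05 ± 0.35 (adjusted p = 0.0249), a 4.13-fold difference, and 2.14 against HFHS replicate 2 alone.

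Slc30a1 encodes ZnT1, the transporter that moves zinc out of the cell. It stood at 9.80, 9.87 and 9.98 in calcitriol livers, against 9.39, 9.39 and 9.40 in HFHS livers. The HFHS livers, uneven for so many genes, lay within 0.01 of each other for Slc30a1, and the log2 change was 0.49 ± 0.06 (adjusted p = 0.00864). Slc39a14 encodes ZIP14, which imports zinc and iron into hepatocytes. It stood at 12.35, 12.56 and 12.69 in calcitriol livers, against 11.96, 12.21 and 11.91 in HFHS livers, a rise of 0.50 ± 0.11 (adjusted p = 0.0425). Its groups did not overlap, but against HFHS replicate 2 alone the change was 0.33.

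These 4 were the called genes among 22 tested members of a list of 25 metallothionein and zinc handling genes, all 4 higher, beside 0.973% of all genes that were higher. The list's median log2 change was 0.01 against -0.002 over all genes tested. The importer gene Slc39a10 stood at 5.78, 5.59 and 5.86 in calcitriol livers and 6.12, 6.10 and 6.05 in HFHS livers. These groups did not overlap either, but the difference of -0.35 ± 0.10 did not pass (adjusted p = 0.0944). For Mtf1 itself, which encodes the zinc sensor, the difference was 0.01 ± 0.09 (adjusted p = 0.957), and -0.12 against HFHS replicate 2 alone. Calcitriol replicate 3 was the highest library for all 4 called genes, and it also had the highest acute phase values described below. Without it, the changes of Mt2 and Slc30a1 were 2.21 (adjusted p = 0.0328) and 0.44 (adjusted p = 0.0429), and those of Mt1 and Slc39a14 were 1.68 (adjusted p = 0.0996) and 0.43 (adjusted p = 0.16).

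**Figure D2:**
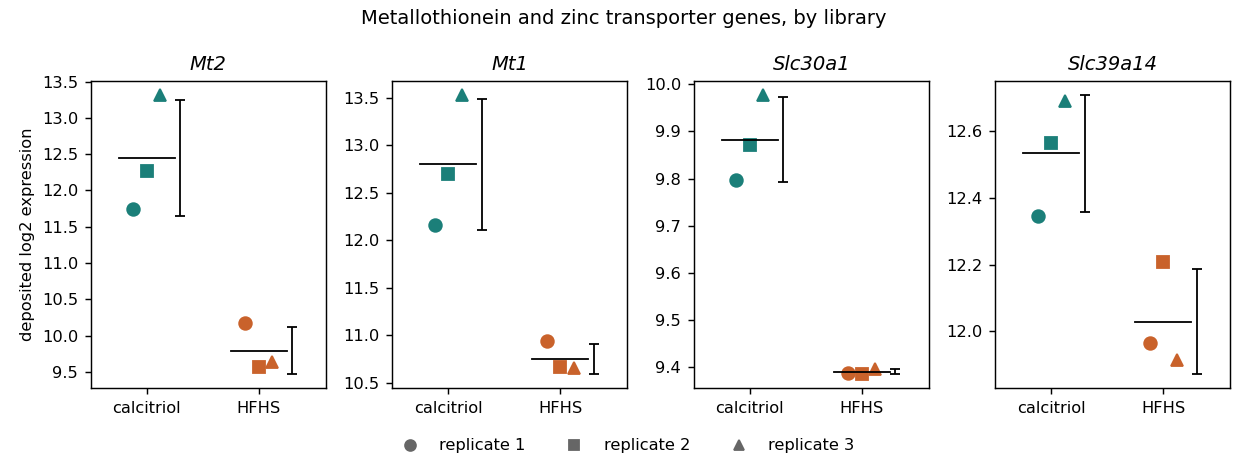
Deposited log2 expression (vertical axis, a separate range for each gene that does not start at 0) of Mt2, Mt1, Slc30a1 and Slc39a14 in calcitriol livers (left) and HFHS livers (right). Points are libraries, with the shape giving the replicate number; horizontal lines are group means and bars are ± 1 SD (n = 3). Every calcitriol liver lies above every HFHS liver for the 4 genes.

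The vitamin D pathway itself gave few measurable genes. The receptor gene Vdr stood at -0.661, -0.724 and -0.724 in calcitriol livers and -0.672, -0.724 and -0.698 in HFHS livers, below the filter, at values close to a floor. Cyp24a1, which encodes the calcitriol-degrading enzyme and is the classic induced gene of the pathway in kidney and intestine, was listed at 0 in every library. Cyp27b1, which encodes the activating enzyme, was also below the filter. Rxra, the receptor's partner, stood at 13.04, 13.09 and 13.07 in calcitriol livers and 12.65, 13.10 and 12.75 in HFHS livers, a difference of 0.24 ± 0.11 (adjusted p = 0.249). Gc, which encodes vitamin D binding protein, differed by 0.15 ± 0.13 (adjusted p = 0.549). For Rxra and Gc the groups overlapped, and against HFHS replicate 2 alone the differences were -0.03 and 0.00. Of 10 tested members of the 20-gene vitamin D list, 1 passed, beside 2.21% of all genes. This was Dhcr7, whose enzyme turns the vitamin D precursor into cholesterol, and it was lower. It belongs to the cholesterol genes as well. A full vitamin D response element (a direct repeat spaced by 3 bases, searched on both strands) was found in 2 of 9857 promoter windows, in 0 of the 82 windows of genes that were higher and in 0 of the 130 windows of genes that were lower. With so few matches among all windows, 0 was the likely count in either set. The search says nothing of elements outside these windows or of elements with other letters.

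Cholesterol synthesis was the pathway with the most called members. It starts from acetyl-CoA, runs through mevalonate and squalene, and is switched on by the transcription factor SREBP2 when cell cholesterol is low. Of 25 tested genes of cholesterol synthesis and uptake, 12 fell and none rose, beside 1.23% of all genes that were lower, and 24 of 25 had a negative change, beside 50.5% of all genes. The median log2 change was -0.66, and -0.88 against HFHS replicate 2 alone. The promoters of Hmgcs1 and Mvd, the members with the largest falls, are shown because SREBP2 acts beside the CCAAT-binding factor NF-Y at genes of this pathway. Capitals mark CCAAT on either strand, a motif chosen after the values were seen. The Hmgcs1 window is chr13:119690101-119690400 (plus strand) with 4 matches and the Mvd window chr8:122443373-122443672 (minus strand) with 2.
Hmgcs1: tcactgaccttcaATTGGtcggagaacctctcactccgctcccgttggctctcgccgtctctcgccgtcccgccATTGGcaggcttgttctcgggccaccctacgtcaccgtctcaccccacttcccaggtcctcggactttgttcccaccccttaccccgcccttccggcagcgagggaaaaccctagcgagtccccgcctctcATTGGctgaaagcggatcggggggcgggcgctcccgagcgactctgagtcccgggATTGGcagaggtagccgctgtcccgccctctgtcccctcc
Mvd: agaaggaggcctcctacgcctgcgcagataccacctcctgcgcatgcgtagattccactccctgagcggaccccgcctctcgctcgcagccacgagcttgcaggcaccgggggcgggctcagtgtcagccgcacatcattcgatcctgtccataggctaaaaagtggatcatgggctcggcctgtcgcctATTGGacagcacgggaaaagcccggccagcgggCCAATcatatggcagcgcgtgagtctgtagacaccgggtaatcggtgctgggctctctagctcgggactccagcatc
CCAAT was present in 8 of the 10 called members with a window (80%) and in 15 of 17 tested members with a window (88.2%), beside 38.8% of all windows. It is not particular to this list: 7 of 8 called cell cycle genes with a window held it too (87.5%).

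Hmgcs1, whose enzyme makes HMG-CoA, stood at 11.68, 11.79 and 11.26 in calcitriol livers, against 12.57, 12.94 and 12.90 in HFHS livers. Mvd, whose enzyme completes the mevalonate steps, stood at 7.19, 7.41 and 6.97 in calcitriol livers, against 8.22, 8.60 and 8.48 in HFHS livers. Neither gene's groups overlapped. The log2 changes were -1.23 ± 0.20 for Hmgcs1 (adjusted p = 0.021) and -1.24 ± 0.23 for Mvd (adjusted p = 0.0305), and against HFHS replicate 2 alone they were -1.37 and -1.41. Fdps, whose enzyme makes farnesyl diphosphate, stood at 7.35, 7.36 and 7.30 in calcitriol livers, against 8.01, 8.50 and 8.28 in HFHS livers, and fell by 0.93 ± 0.15 (adjusted p = 0.021). Lss, whose enzyme closes the sterol rings, stood at 9.82, 9.90 and 9.61 in calcitriol livers, against 10.39, 10.73 and 10.65 in HFHS livers, and fell by 0.81 ± 0.12 (adjusted p = 0.0127). Dhcr7 stood at 10.38, 10.12 and 10.19 in calcitriol livers, against 10.83, 11.19 and 10.76 in HFHS livers, and fell by 0.70 ± 0.11 (adjusted p = 0.0205). HFHS replicate 2 was the highest library for all 5 genes, so against it alone each fall was larger than in the full comparison.

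The other called members were Cyp51, Sc5d, Pmvk, Fdft1, Nsdhl, Mvk and Acat2, with changes of -0.59 to -0.76. Thus falls were found from acetyl-CoA to the last sterol steps. Sqle, whose enzyme oxidises squalene, stood at 9.67, 9.91 and 9.75 in calcitriol livers and 10.37, 10.81 and 10.70 in HFHS livers, and its difference of -0.85 ± 0.20 missed the threshold narrowly (adjusted p = 0.0523). Srebf2, which encodes SREBP2, differed by -0.19 ± 0.10 (adjusted p = 0.299). Ebp was the member with a positive difference (0.11 ± 0.14, adjusted p = 0.689). Of the 25 genes, 7 passed without calcitriol replicate 1, none without calcitriol replicate 2 and none without calcitriol replicate 3, when the median was -0.58.

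**Figure D3:**
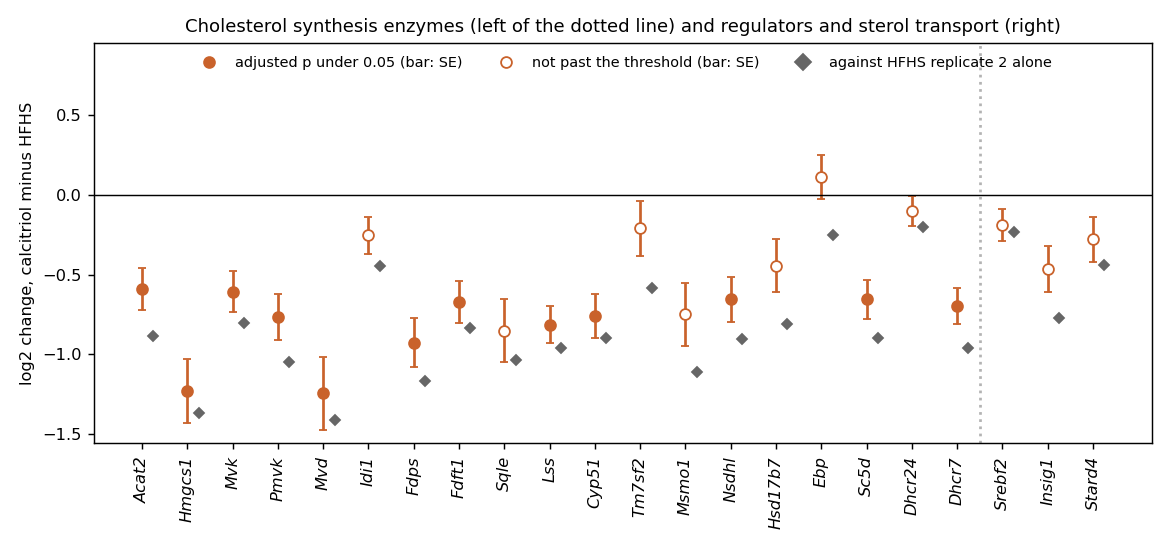
Log2 change (calcitriol minus HFHS, vertical axis) of 22 genes of cholesterol synthesis (left of the dotted line, in pathway order) and its regulators and sterol transport (right). Filled circles passed an adjusted p of 0.05 and open circles did not, bars are ± 1 SE, and grey diamonds give the change against HFHS replicate 2 alone; 21 of 22 circles lie below 0.

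Fatty acid synthesis genes moved less uniformly. Fasn, the fatty acid synthase, stood at 11.95, 11.91 and 11.59 in calcitriol livers, against 12.48, 12.96 and 12.77 in HFHS livers, and fell by 0.92 ± 0.17 (adjusted p = 0.0297) with no overlap. It was the 1 called gene among 21 of de novo lipogenesis, beside 1.23% of all genes that were lower. A negative change was found in 18 of the 21 (50.5% of all genes), with a list median of -0.43. Scd1, the desaturase that makes oleate, stood at 15.19, 13.40 and 13.17 in calcitriol livers and 15.69, 15.46 and 15.19 in HFHS livers. Calcitriol replicate 1 reached the lowest HFHS liver to 2 decimals, and the difference of -1.53 ± 0.47 did not pass (adjusted p = 0.105). Elovl5, an elongase of polyunsaturated fatty acids, differed by -0.89 ± 0.21 (adjusted p = 0.0501). The changes of Fasn and Elovl5 were -1.15 and -1.20 against HFHS replicate 2 alone.

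Among 23 tested genes of lipid droplets and fat storage, 2 fell, beside 1.23% of all genes, and none rose. Cidec, which fuses lipid droplets and rises in fatty liver, stood at 6.41, 5.91 and 5.80 in calcitriol livers, against 8.35, 6.93 and 7.74 in HFHS livers, and fell by 1.63 ± 0.29 (adjusted p = 0.027). The groups did not overlap, but against HFHS replicate 2 alone the change was -0.89. Pparg, the nuclear receptor that drives fat storage, fell by 0.52 ± 0.10 (adjusted p = 0.0297), and by 0.34 against HFHS replicate 2 alone.

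DNA replication and cell cycle genes came next in number of calls: of 27 tested 10 fell, beside 1.23% of all genes, and none rose. A negative change was found in 26, beside 50.5% of all genes, and the median was -0.60. The MCM proteins form the helicase ring that opens DNA for replication, and their genes are classic targets of the E2F factors. The Mcm5 window is chr8:75109259-75109558 (plus strand) and the Mcm6 window chr1:128359656-128359955 (minus strand). Capitals mark TTTGGCGC, TTTCCCGC, TTTCGCGC or TTTGCCGC on either strand, letters chosen after the values were seen. Mcm5 held 2 matches that overlap and Mcm6 held 3, of which 2 overlap.
Mcm5: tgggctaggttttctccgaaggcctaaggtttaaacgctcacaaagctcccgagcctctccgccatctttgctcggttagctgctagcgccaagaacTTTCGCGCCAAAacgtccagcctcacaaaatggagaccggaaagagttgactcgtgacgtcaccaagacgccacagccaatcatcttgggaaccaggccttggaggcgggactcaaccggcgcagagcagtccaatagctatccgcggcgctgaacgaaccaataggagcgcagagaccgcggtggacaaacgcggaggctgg
Mcm6: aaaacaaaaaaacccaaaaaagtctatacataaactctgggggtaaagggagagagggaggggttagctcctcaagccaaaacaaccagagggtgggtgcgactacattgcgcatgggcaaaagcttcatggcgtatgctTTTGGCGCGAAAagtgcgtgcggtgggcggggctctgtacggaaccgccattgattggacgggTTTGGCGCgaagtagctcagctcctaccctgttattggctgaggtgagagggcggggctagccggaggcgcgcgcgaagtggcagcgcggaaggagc
These letters were present in 4 of the 8 called members with a window (50%), in 6 of 22 tested members (27.3%) and in 4.02% of all windows.

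Mcm5 stood at 5.88, 5.53 and 5.65 in calcitriol livers, against 6.99, 6.76 and 6.46 in HFHS livers, and fell by 1.05 ± 0.13 (adjusted p = 0.00864). Mcm6 stood at 6.69, 6.49 and 6.55 in calcitriol livers, against 8.02, 7.40 and 7.56 in HFHS livers, and fell by 1.09 ± 0.14 (adjusted p = 0.00868). Both genes separated the groups fully, and against HFHS replicate 2 alone the changes were -1.07 for Mcm5 and -0.83 for Mcm6. Ccnd1 encodes cyclin D1, which carries hepatocytes into the cell cycle. It stood at 10.03, 9.998 and 9.29 in calcitriol livers, against 12.11, 11.20 and 11.24 in HFHS livers, and fell by 1.74 ± 0.24 (adjusted p = 0.0163). Against HFHS replicate 2 alone its change was -1.42. Mcm3 fell by 0.69 ± 0.12 (adjusted p = 0.021), and Mcm2, Mcm4, Rrm1, Hells, Uhrf1 and Aurka fell by 0.44 to 0.87. The proliferation marker Mki67 stood at 5.96, 5.62 and 5.73 in calcitriol livers and 7.45, 6.03 and 7.03 in HFHS livers, and its difference of -1.07 ± 0.29 did not pass (adjusted p = 0.0789). As a group these genes were closest to the calcitriol livers in HFHS replicate 2: against it alone the list's median was -0.27.

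NRF2 is the transcription factor that induces detoxifying and antioxidant enzymes. Of 27 tested NRF2 target genes 9 fell, beside 1.23% of all genes, and none rose. A negative change was found in 23, beside 50.5% of all genes, and the median was -0.30. Without HFHS replicates 1, 2 and 3 in turn, 1, 11 and 3 members passed, beside 24, 2194 and 58 of all genes. The list's mean deviation from each gene's mean over 12 libraries was 0.268, 0.0225 and 0.129 in HFHS livers. In calcitriol livers it was -0.138, -0.225 and -0.3, so HFHS replicate 2 lay nearest to them. Gstm4, a glutathione transferase, stood at 8.73, 8.57 and 8.55 in calcitriol livers, against 9.50, 9.40 and 9.21 in HFHS livers, and fell by 0.75 ± 0.10 (adjusted p = 0.0114). Gstm1 fell by 0.77 ± 0.14 (adjusted p = 0.027), and by 0.59 against HFHS replicate 2 alone. Gstm3, the member with the largest fall, stood at 7.97, 7.42 and 7.37 in calcitriol livers, against 10.27, 8.45 and 9.30 in HFHS livers, and fell by 1.75 ± 0.36 (adjusted p = 0.0398). Its groups did not overlap, and against HFHS replicate 2 alone its change was -0.86. The Gstm genes are related paralogues, so reads may be split between them where their sequences match, which makes their single values less certain.

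Outside that family, Pgd of the pentose phosphate pathway stood at 8.91, 8.81 and 9.02 in calcitriol livers, against 9.53, 9.45 and 9.45 in HFHS livers, and fell by 0.56 ± 0.09 (adjusted p = 0.0179). Ugdh, whose enzyme makes the substrate for glucuronidation, fell by 0.58 ± 0.09 (adjusted p = 0.0191), and by 0.43 against HFHS replicate 2 alone. Nqo1, Gstp1, Ephx1 and Srxn1 fell by 0.62 to 0.67. Other targets did not follow: Hmox1 differed by -0.12 ± 0.18 (adjusted p = 0.751) and Gclc by -0.09 ± 0.08 (adjusted p = 0.541). Pir, which encodes pirin and was named after its values were seen, had one of the smallest p-values of all genes. It stood at 7.15, 7.23 and 7.26 in calcitriol livers, against 7.86, 7.91 and 7.94 in HFHS livers, and fell by 0.69 ± 0.07 (adjusted p = 0.00225).

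Heat shock genes, which encode chaperones that refold proteins after stress, had 3 of 20 tested members lower, beside 1.23% of all genes, and none higher. Hspa1b (chr17:34956436-34959238), an inducible HSP70, stood at 5.93, 5.67 and 5.89 in calcitriol livers, against 6.66, 6.85 and 7.06 in HFHS livers. The groups were separated by more than the range of either, with a change of -1.03 ± 0.11 (adjusted p = 0.00225) that was -1.02 against HFHS replicate 2 alone. Hspa1b passed the threshold in 13 of 14 alternative fits, the exception being the fit on 6 libraries. Its neighbour Hspa1a is a near-identical copy that was below the filter, so reads of both genes cannot be told apart with certainty. Dnajb1, an HSP40 that works with HSP70, stood at 8.38, 8.30 and 8.38 in calcitriol livers, against 8.83, 9.09 and 8.90 in HFHS livers, and fell by 0.59 ± 0.09 (adjusted p = 0.018). Hspa8, the constitutive member, fell by 0.39 ± 0.09 (adjusted p = 0.0448). The changes of Dnajb1 and Hspa8 were -0.74 and -0.51 against HFHS replicate 2 alone.

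The acute phase response is the liver's secretory answer to inflammatory cytokines, above all interleukin-6. Of 21 tested acute phase genes 2 rose, beside 0.973% of all genes, 20 had a positive change, beside 49.5% of all genes, and in 15 the groups did not overlap, beside 24.4% of all genes tested; the median log2 change was 0.79. Saa4, a constitutive serum amyloid A, stood at 13.52, 13.71 and 14.23 in calcitriol livers, against 12.05, 13.04 and 12.38 in HFHS livers, and rose by 1.33 ± 0.26 (adjusted p = 0.034), or by 0.78 against HFHS replicate 2 alone. Itih4, a secreted inhibitor family member, stood at 16.31, 16.46 and 17.38 in calcitriol livers, against 15.36, 15.89 and 15.56 in HFHS livers, and rose by 1.12 ± 0.26 (adjusted p = 0.0495). The rise of Itih4 was 0.83 against HFHS replicate 2 alone. Neither gene passed without calcitriol replicate 3, with adjusted p = 0.134 for Saa4 and 0.156 for Itih4.

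Calcitriol replicate 3 stood apart in this list. The mean deviation of the list from each gene's mean over 12 libraries was 0.0908, 0.243 and 1.56 in calcitriol livers, against -0.331, -0.281 and -0.361 in HFHS livers. Saa2, an inducible serum amyloid A, stood at 11.35, 11.64 and 17.12 in calcitriol livers, against 10.48, 10.47 and 10.20 in HFHS livers. Saa1, its near-identical neighbour, stood at 12.65, 13.13 and 16.69 in calcitriol livers, against 11.36, 11.43 and 11.13 in HFHS livers. Every calcitriol liver was above every HFHS liver for both, yet with 1 library so far above the rest the differences of 2.99 ± 1.57 for Saa2 (adjusted p = 0.314) and 2.85 ± 1.22 for Saa1 (adjusted p = 0.22) did not pass. Lcn2, which encodes the iron-binding protein lipocalin 2, stood at 11.25, 11.25 and 13.92 in calcitriol livers and 11.15, 10.29 and 11.12 in HFHS livers (1.29 ± 0.99, adjusted p = 0.502). Saa1 and Saa2 are named because of their values. The part of this response in the metallothionein rise was not tested. CNT replicate 3 had a list deviation of 0.694, above calcitriol replicates 1 and 2, with Mt2 at 10.53, below every calcitriol liver, and Mt1 at 12.33, above calcitriol replicate 1.

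Inflammation, macrophage and matrix genes differed mainly from HFHS replicates 1 and 3. Col1a1, the main fibrillar collagen of scar tissue, stood at 7.66, 6.86 and 6.68 in calcitriol livers and 10.13, 7.33 and 9.78 in HFHS livers. Calcitriol replicate 1 was above HFHS replicate 2, and the difference of -2.01 ± 0.62 did not pass (adjusted p = 0.111) and was -0.26 against HFHS replicate 2 alone. None of 33 tested matrix genes passed, and 31 had a negative change, beside 50.5% of all genes. The median was -0.84, and -0.00159 against HFHS replicate 2 alone. Without HFHS replicate 2 it was -1.24 and 29 passed, beside 2194 of all 12637 genes. Gpnmb, a marker of lipid-associated macrophages, stood at 4.33, 4.18 and 4.40 in calcitriol livers and 8.62, 4.89 and 7.15 in HFHS livers, and its difference of -2.59 ± 0.71 did not pass (adjusted p = 0.087) and was -0.59 against HFHS replicate 2 alone. None of 14 tested genes of monocyte-derived and lipid-associated macrophages passed. Their median was -0.71, and 0.0109 against HFHS replicate 2 alone. Without HFHS replicate 2 it was -1.11 and 10 passed, beside the same 2194 of all 12637 genes. MHC class II genes, which present antigen, had 0 of 10 called, with all 10 changes negative, beside 50.5% of all genes, and a median of -0.55 that was -0.15 against HFHS replicate 2 alone.

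**Figure D4:**
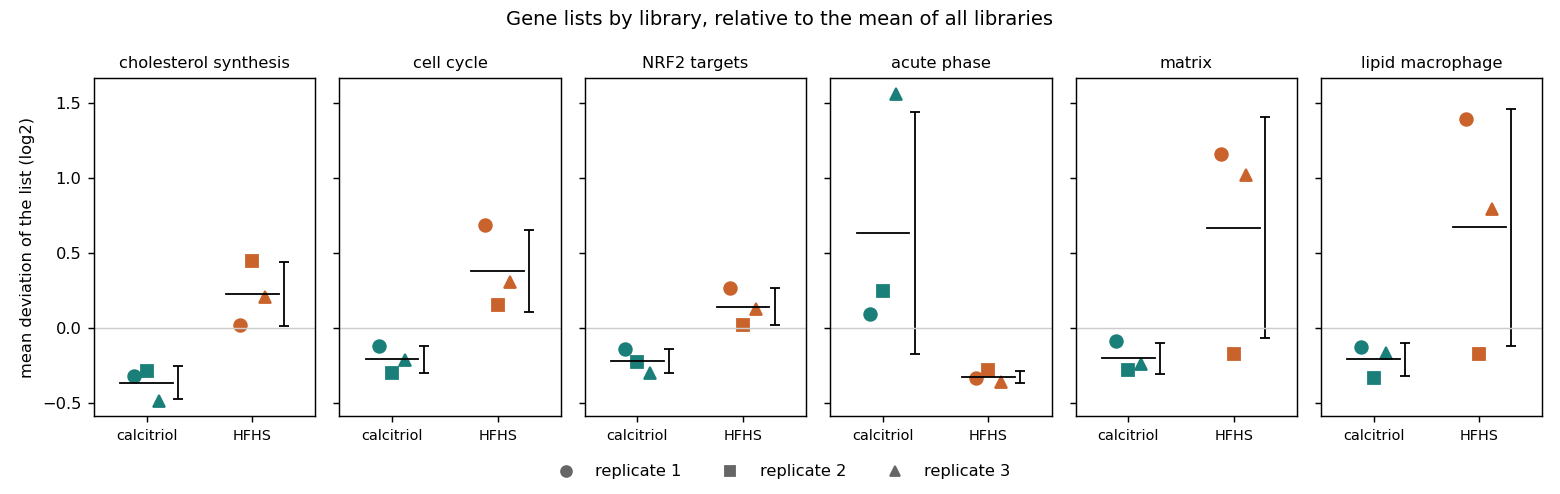
Mean deviation of 6 gene lists from each gene's mean over all 12 libraries (log2, vertical axis) in calcitriol livers (left) and HFHS livers (right). Points are libraries, with the shape giving the replicate number; lines are group means and bars ± 1 SD (n = 3). HFHS replicate 2 is the highest HFHS library for cholesterol synthesis and lies with the calcitriol livers for matrix and macrophage genes; calcitriol replicate 3 stands apart for acute phase genes at 1.56.

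Of 22 tested genes of the NF-kB pathway and inflammatory cytokines, 2 fell, beside 1.23% of all genes, and none rose. The chemokine genes Ccl5 and Cxcl10, which attract T cells, fell by 0.99 ± 0.20 (adjusted p = 0.0365) and 0.86 ± 0.17 (adjusted p = 0.0314), and by 0.43 and 0.50 against HFHS replicate 2 alone. Nfkbia, which encodes the feedback inhibitor of NF-kB, differed by -0.14 ± 0.12 (adjusted p = 0.541). Il1b differed by -0.23 ± 0.18 (adjusted p = 0.495), and Ccl2, which attracts monocytes, by -0.51 ± 0.16 (adjusted p = 0.109). Against HFHS replicate 2 alone the differences were -0.06 for Nfkbia, 0.05 for Il1b and -0.17 for Ccl2. Tnf was below the filter, at 2.47, 2.36 and 2.48 in calcitriol livers and 2.63, 2.46 and 2.71 in HFHS livers. Cd68, a general macrophage marker, differed by -0.17 ± 0.13 (adjusted p = 0.506), and by 0.04 against HFHS replicate 2 alone.

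Markers of resident liver cells gave single calls. Cd163, a scavenger receptor of resident macrophages, stood at 8.83, 9.39 and 9.24 in calcitriol livers, against 6.70, 8.50 and 6.49 in HFHS livers. It rose by 1.92 ± 0.42 (adjusted p = 0.047) with no overlap, but by 0.65 against HFHS replicate 2 alone. It was the 1 call among 15 Kupffer cell markers (median 0.24), beside 0.973% of all genes that were higher. Of the 15 markers, 4 had a negative change. Clec4f, the defining marker of these cells, differed by 0.51 ± 0.13 (adjusted p = 0.0608), and by 0.22 against HFHS replicate 2 alone. Clec4g, a lectin of sinusoidal endothelium, rose by 0.63 ± 0.13 (adjusted p = 0.038), the 1 call among 18 endothelial markers, beside 0.973% of all genes. The rise of Clec4g was 0.47 against HFHS replicate 2 alone. A positive change was found in 16 of the 18 endothelial markers, beside 49.5% of all genes. Of 14 tested stellate cell and fibroblast markers 2 fell, beside 1.23% of all genes, the smooth muscle gene Tagln by 1.14 ± 0.25 (adjusted p = 0.0424) and desmin (Des) by 0.41 ± 0.09 (adjusted p = 0.0455). Against HFHS replicate 2 alone the changes were -0.51 for Tagln and -0.22 for Des. The part of cell numbers in these values was not tested.

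Several of the largest changes lay outside the lists. Mir22hg (chr11:75461539-75466676), the host transcript of a microRNA, stood at 8.85, 9.17 and 8.86 in calcitriol livers, against 7.94, 8.14 and 7.83 in HFHS livers. It rose by 0.99 ± 0.10 (adjusted p = 0.00225), by 0.83 against HFHS replicate 2 alone, and passed in 12 of 14 alternative fits. Pex26, which anchors the peroxisomal import machinery and was named after its values were seen, stood at 9.61, 9.74 and 9.77 in calcitriol livers, against 8.88, 9.13 and 8.91 in HFHS livers, and rose by 0.73 ± 0.08 (adjusted p = 0.00225). Chac1, a glutathione-degrading enzyme induced by ATF4, stood at 6.83, 7.74 and 7.40 in calcitriol livers, against 6.24, 6.29 and 6.23 in HFHS livers, and rose by 1.07 ± 0.19 (adjusted p = 0.027). It was the 1 call among 17 tested ATF4 targets, whose median was -0.32, beside 0.973% of all genes that were higher. Cyp3a13, a drug-metabolising cytochrome P450, rose by 1.03 ± 0.16 (adjusted p = 0.018), the 1 call among 27 genes of families 2 and 3, beside 0.973% of all genes. Of the 27, 22 had a positive change, beside 49.5% of all genes. Cyp3a11, which is also in the vitamin D list, went the other way without passing (-0.58 ± 0.17, adjusted p = 0.0849). Its groups did not overlap, and its difference was -0.43 against HFHS replicate 2 alone. Other large rises were B3galt1 (1.33 ± 0.25), a glycosyltransferase, Acpp (1.06 ± 0.22), a phosphatase, Fbxo31 (0.97 ± 0.19), an F-box protein, Rab30 (0.85 ± 0.19), a small GTPase and Gm16348 (0.85 ± 0.17). All of them passed, with adjusted p from 0.0314 for B3galt1 to 0.0474 for Rab30. Against HFHS replicate 2 alone the changes were 0.47 for Acpp, 0.51 for Fbxo31, 0.64 for Gm16348 and 0.67 for Rab30. Those of Cyp3a13 and B3galt1 were 0.79 and 0.94.

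Among the largest falls, Anxa2, a membrane-binding annexin, stood at 7.99, 7.81 and 7.91 in calcitriol livers, against 9.89, 8.43 and 9.27 in HFHS livers, and fell by 1.29 ± 0.27 (adjusted p = 0.0384), by 0.52 against HFHS replicate 2 alone. Chrna4, a nicotinic receptor subunit, stood at 4.88, 4.52 and 4.48 in calcitriol livers, against 5.72, 5.83 and 6.10 in HFHS livers, and fell by 1.25 ± 0.26 (adjusted p = 0.0372). Against HFHS replicate 2 alone its change was -1.20. Slc1a4, a neutral amino acid transporter, fell by 1.21 ± 0.24 (adjusted p = 0.0364), Lgals1, a galectin, by 1.10 ± 0.18 (adjusted p = 0.021), Blnk, a B cell adaptor, by 1.05 ± 0.22 (adjusted p = 0.039) and Tnfrsf19, a receptor of the TNF family, by 1.03 ± 0.22 (adjusted p = 0.0389). For Slc1a4 and Blnk the changes against HFHS replicate 2 alone were -0.62 and -0.47, and for Lgals1 and Tnfrsf19 they were -0.89 and -0.70.

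Over all 279 called genes, HFHS replicate 2 was the HFHS liver nearest to the calcitriol group for 87 of the 123 that rose and 97 of the 156 that fell. Against it alone, 21 of the 123 had a change at least as large as in the full comparison and 7 had under 50% of it. Of the 156, 39 were at least as large and 19 were under 50%. No change had the opposite sign, which the lack of overlap among called genes fixes. The median change was 0.396 for the genes that rose and -0.433 for those that fell.

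**Figure D5:**
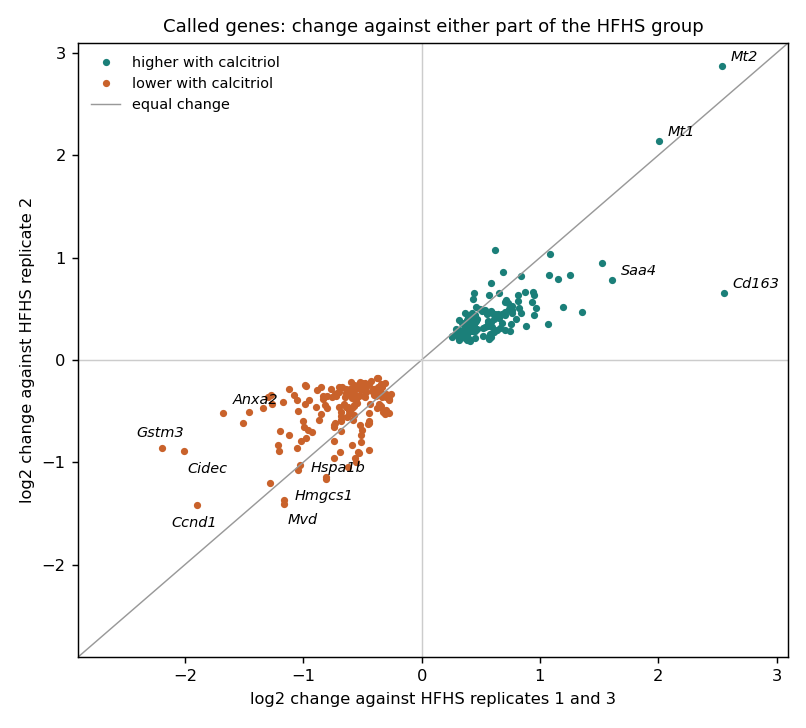
Log2 change of the 279 called genes against HFHS replicates 1 and 3 (horizontal axis) and against HFHS replicate 2 alone (vertical axis), with the line of equal change. Mt2, Hmgcs1, Mvd and Hspa1b lie on or beyond the line, away from 0, while Cd163, Anxa2, Gstm3 and Cidec lie nearer to the horizontal axis, with smaller changes against HFHS replicate 2.

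Set directly against curcumin liposomes, a difference between means that no HFHS liver enters, calcitriol differed in 0 of 12637 genes (0%) at an adjusted p of 0.05, with a lowest adjusted p of 0.142 and 1873 genes (14.8%) at an unadjusted p under 0.05. The HFHS livers do enter the spread that all groups share, and without HFHS replicates 1 and 3 the count was 10. A p that misses the threshold does not show that both treatments act alike. With one weight per group in the model, an alternative chosen after the data were seen, 156 genes were higher and 67 lower with calcitriol. Mt2 stood at 11.75, 12.27 and 13.31 in calcitriol livers and 12.14, 11.54 and 11.37 in curcumin livers (0.76 ± 0.37, adjusted p = 0.362), with overlap. Mvd was at 7.19, 7.41 and 6.97 in calcitriol livers and 7.25, 8.01 and 7.84 in curcumin livers, overlapping as well. For 275 of the 279 called genes, the curcumin mean lay on the same side of the HFHS mean as the calcitriol mean. Both differences use the same HFHS livers, which favours such a count, and the share over all genes was not counted. Of the same 279 genes, 105 had an unadjusted limma p under 0.05 for calcitriol against curcumin, beside 14.8% of all genes. Here the calcitriol livers enter both differences, which favours that count too. Cidec stood at 6.41, 5.91 and 5.80 in calcitriol livers and 6.83, 7.11 and 7.22 in curcumin livers, without overlap (-1.01 ± 0.29, adjusted p = 0.218). Slc30a1 stood at 9.77, 9.67 and 9.66 in curcumin livers and 9.78, 9.78 and 9.71 in CNT livers, above every HFHS liver. Both treatments share liposomes and schedule, and the labels give no dose.

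The genes nearest to a difference between both treatments are given as values. Gpc1, a cell surface proteoglycan, stood at 7.89, 7.97 and 7.54 in calcitriol livers and 8.60, 8.70 and 8.59 in curcumin livers (-0.83 ± 0.13). Adam23, a cell adhesion protein, stood at 7.88, 7.998 and 8.30 in calcitriol livers and 7.30, 7.25 and 7.33 in curcumin livers (0.76 ± 0.12). Clstn3, a calsyntenin, differed by -0.73 ± 0.11, Plxnc1, a semaphorin receptor, by 0.88 ± 0.14, Tlr8, an endosomal RNA sensor, by 0.70 ± 0.12, and Usp12, a deubiquitinase, by 0.34 ± 0.06. The groups did not overlap in any of the 6, which their choice by smallest p favours, and all had an adjusted p of 0.142.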

How the data were processed

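RNA was extracted from flash frozen livers and sequenced on Illumina libraries, per the labels' protocols. The authors deposited one table of log2 values per library; the submitters' processing notes name STAR 2.4.0d, DESeq2 1.8.1 and GRCm38 without their roles, and the transformation is not given in the sources used here. The values run from -3.63 to 20.7, none of the 22381 genes with a value is at 0 in only some libraries, and 23411 genes at 0 in all 12 were left out. If the values are regularised logs, changes of weakly expressed genes are pulled toward 0. Depth is unknown. Names and coordinates are from GENCODE M21 (GRCm38), which lacks 32 of the tested genes.

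Groups come from sample titles. limma 3.58.1 in R 4.3.3 fitted 4 group means to 12 libraries (empirical Bayes with trend and robust estimation, two-sided, Benjamini-Hochberg over 12637 genes, threshold 0.05), checked on simulated data. Replicate numbers were not used as pairs. Among genes past the threshold, the 14 largest rises and 14 largest falls with groups that do not overlap were named, with the top members of each list and a fixed set (Vdr, Mt1, Tnf and others); further list members, Pir, Pex26, Saa1 and Saa2 were picked on their values. The 39 lists (24 pathway, 15 cell type) are described by counts and medians, with no set test. The comparison, the members and the lists were chosen with earlier results of these data known. Alternatives were the filter, quantile normalisation, plain moderation, a replicate block, the 6 libraries alone, group weights and leaving out libraries. A few genes of these lists and rankings are not reported here.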

Additional observations from a re-analysis of the deposited data

How the results depend on the processing

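None of the 48 genes that passed under the naming rule changed direction under 14 alternatives. Of the 60 that did not pass, 13 did, in 20 values. For the 48, groups that do not overlap cannot change direction when libraries are left out. Most of the other fits keep the same group means. The unchanged direction of the 48 is therefore no sign of stability. Against HFHS replicate 2 alone, Rxra was at -0.029, Mtf1 at -0.125, Il1b at 0.046, Cd68 at 0.0408, Fabp4 at 0.012, Jchain at 0.214, Igkc at 0.334, Ngp at 0.0677, Ndufs3 at -0.0777, Cela1 at -0.206, Asl at -0.00617 and Nkg7 at 0.00753. Leaving out 1 library at a time gave -0.0619 to 0.0787 for Mtf1 and -0.0737 to 0.113 for Cela1. Gc was at -0.13 with quantile normalisation. Calls were also unstable. Of the 48, 48 passed with quantile normalisation and without HFHS replicate 2, but 0 in the fit on 6 libraries, 2 without calcitriol replicate 2 and 3 against HFHS replicate 2 alone. In the fit on 6 libraries, the 279 calls became 0, as did those of the 5 lists with at least 3 calls (cholesterol, cell cycle, NRF2, metallothionein and zinc, heat shock). Leaving out 1 library at a time gave 4 to 2194 calls in all, 0 to 14 for cholesterol, 0 to 21 for cell cycle, 0 to 11 for NRF2, 0 to 5 for metallothionein and zinc and 1 to 4 for heat shock. Leaving out HFHS replicates 1 and 3 together gave 4 calls in all, 1 each for cholesterol, cell cycle and heat shock, 0 for NRF2 and 0 for metallothionein and zinc, and 10 calls for calcitriol against curcumin. With fewer libraries the fit has less power, so lost calls are no measure of a smaller effect. Quantile normalisation gave 427 calls (199 higher, 228 lower), 269 of them shared with the 279, and 5 heat shock genes. The heat shock list had 2 calls under the replicate block, without the filter and under group weights. One weight per group gave 223 genes for calcitriol against curcumin, where HFHS has the lowest weight. The cause of these shifts was not tested. Same-numbered calcitriol and HFHS livers had correlations of their deviations of -0.0386, 0.12 and 0.0224, and those with unlike numbers ran from -0.12 to 0.123. With 3 libraries per group, these values cannot show whether the numbers pair the samples. The replicate block gave 280 calls, 214 shared with the 279. Depth limits cannot be given, as the values carry no counts.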

Other observations

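Of 9 tested erythroid genes 1 rose, beside 0.973% of all genes. All 9 had a positive change, beside 49.5% of all genes, with a median of 0.86, and in 8 the groups did not overlap, beside 24.4% of all genes. Alas2, the red cell enzyme of haem synthesis, stood at 9.85, 9.63 and 9.64 in calcitriol livers, against 8.96, 9.30 and 9.15 in HFHS livers, and rose by 0.57 ± 0.13 (adjusted p = 0.0415). The globin gene Hba-a2 stood at 10.34, 10.07 and 10.19 in calcitriol livers and 8.66, 9.19 and 9.59 in HFHS livers (1.05 ± 0.26, adjusted p = 0.0645). The rise of Alas2 was 0.41 against HFHS replicate 2 alone. The globin genes have near-identical copies, and the amount of blood left in each liver was not tested.

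The remaining lists held no called gene. Oxidative phosphorylation (32 tested) had a median of -0.01, cytosolic ribosomal proteins (28) of -0.06, fatty acid oxidation and ketogenesis (25) of 0.01, bile acid synthesis and transport (23) of 0.14, gluconeogenesis, glycolysis and insulin signalling (24) of 0.00, and glucocorticoid-induced genes (16) of 0.08. The unfolded protein response (21) had a median of 0.03, autophagy and lysosome (25) of 0.00, the circadian clock (17) of 0.11 and the interferon response (28) of -0.14. Among cell types, the medians were 0.16 for hepatocytes, 0.21 for periportal and 0.07 for pericentral hepatocytes, -0.15 for dendritic cells, -0.19 for T and NK cells, -0.14 for B and plasma cells, 0.16 for neutrophils and -0.16 for adipocytes. HFHS replicate 3 stood apart in 3 of these lists. Its mean deviation was 1.29 for adipocytes, 0.785 for B and plasma cells and -0.789 for periportal hepatocytes. HFHS replicates 1 and 2 were at -0.3 and -0.0605 for adipocytes, 0.0587 and -0.217 for B and plasma cells, and 0.125 and 0.0958 for periportal hepatocytes. Cholangiocyte markers had a median of -0.59, and -0.08 against HFHS replicate 2 alone. Nr1h4, the bile acid receptor, came closest to the threshold in its list (0.36 ± 0.09, adjusted p = 0.055), with 0.20 against HFHS replicate 2 alone.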
